A study of Mus musculus with 27 samples.

Results

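Broad H3K4 methylation domains far from any annotated promoter were examined in mouse hearts at embryonic day (E) 11.5. They were chosen by width and position from the authors' merged list of H3K4me1, H3K4me2 and H3K4me3 regions. A member was at least 8000 bp wide and had no annotated transcription start site (TSS), of any gene type, inside it or within 5 kb. A promoter missing from the annotation was not excluded by this rule. Of 358833 merged regions, 3045 were 8000 bp or wider and 938 of these were members. The other broad regions held a TSS (1944 regions) or had one within 5 kb but none inside (163 regions). The members made up 0.261% of merged regions and 3.47% of the merged base pairs, 10.7 Mb in all.

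Control hearts were *Tnnt2::Cre;Kmt2d fl/+;mTmG/+* and mutant hearts *Tnnt2::Cre;Kmt2d fl/fl;mTmG/+*, on a C57BL/6 background, so every heart carried the Cre transgene, at least 1 floxed *Kmt2d* allele and the mTmG Cre reporter. The sample titles call the controls WT although the genotype label gives them as heterozygous. Whole hearts were flash frozen and made into 3 pools of 30 per genotype, and the chromatin of each pool was divided between an input and 3 immunoprecipitations. The *Tnnt2* promoter drives Cre in heart muscle cells, so endothelial, epicardial and blood cells in the same pools keep their *Kmt2d*. Of 27 libraries in 9 groups, 24 came from hearts. The remaining 3, KMT2D ChIP-Exo from ES-cell derived cardiomyocytes, were not analysed here.

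KMT2D is one of the enzymes that methylate lysine 4 of histone H3, and it acts chiefly at enhancers. Enhancers away from genes and in introns typically carry H3K4me1 and H3K4me2, whereas H3K4me3 is concentrated at promoters. Long stretches of enhancer marks often lie in or beside genes that define a cell's identity, and in the embryonic heart these include transcription factors, contractile proteins and calcium-handling proteins.

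The readout was whether a merged region reappeared, with the same start and end, in the authors' list of regions with decreased H3K4me1 or decreased H3K4me2 in mutant hearts. The lists hold positions only. They give no read count, fold change or *P* value, the depth behind each region is unknown, and no value per pool could be formed, so no difference below could be tested against the spread between pools. They also do not say which of the 3 marks made a merged region. Shares carry 95% Wilson intervals, which cover counting error over regions only, and neighbouring regions are not independent. As a check of tissue, all 8 cardiomyocyte markers examined had a merged region over a TSS, with widths from 12960 to 48800 bp, and *Gata4* had the widest. Merged regions also lay over a TSS of all 5 endothelial markers (3880 to 15820 bp), all 4 epicardial markers (3540 to 12160 bp) and all 5 erythroid markers (4140 to 23160 bp). All 5 neuronal markers had one too, and 1 of these reached 4000 bp (*Tubb3*, 10580 bp). Of 5 hepatocyte markers 2 had one, and *Alb*, *Serpina1a* and *Cyp3a11* were at 0. Which cells contributed a given member was not tested.

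The middle 300 bp of 5 members are shown because these are the widest member of each list and 3 of the 4 members in both lists. The middle of the fourth, in *Rnf144b*, overlaps an exon and is not shown. Sequences are the plus strand of NCBIM37 (mm9), and capitals mark matches, on either strand, to letters bound by cardiac transcription factors: AGATAA for GATA factors, TNAAGTG for NKX2-5, AGGTGT for TBX5, GGAATG for TEAD factors, and the MEF2 and CArG-box consensus motifs, which can overlap each other.
Upstream of *Sipa1l2*, decreased H3K4me1, chr8:128043116-128043415, plus strand: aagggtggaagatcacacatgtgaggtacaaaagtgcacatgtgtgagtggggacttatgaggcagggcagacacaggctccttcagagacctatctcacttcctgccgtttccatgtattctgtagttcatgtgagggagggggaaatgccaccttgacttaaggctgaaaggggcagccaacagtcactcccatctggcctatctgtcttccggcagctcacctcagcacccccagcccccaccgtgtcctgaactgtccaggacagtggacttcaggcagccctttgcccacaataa
*Abtb2*, decreased H3K4me2, chr2:103430186-103430485, plus strand: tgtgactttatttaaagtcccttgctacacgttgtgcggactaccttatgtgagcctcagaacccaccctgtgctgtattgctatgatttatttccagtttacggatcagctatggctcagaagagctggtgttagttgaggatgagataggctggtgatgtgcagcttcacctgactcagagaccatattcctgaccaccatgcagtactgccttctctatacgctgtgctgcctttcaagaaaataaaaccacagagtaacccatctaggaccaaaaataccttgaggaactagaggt
Downstream of *Sipa1l2*, both lists, chr8:127871276-127871575, plus strand: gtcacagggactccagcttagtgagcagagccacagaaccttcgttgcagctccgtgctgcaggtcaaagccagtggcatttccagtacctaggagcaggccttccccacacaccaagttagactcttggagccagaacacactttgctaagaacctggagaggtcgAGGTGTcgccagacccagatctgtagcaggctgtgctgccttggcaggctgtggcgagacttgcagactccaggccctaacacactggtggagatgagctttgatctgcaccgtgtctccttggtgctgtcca
*Jph2*, both lists, chr2:163182336-163182635, plus strand: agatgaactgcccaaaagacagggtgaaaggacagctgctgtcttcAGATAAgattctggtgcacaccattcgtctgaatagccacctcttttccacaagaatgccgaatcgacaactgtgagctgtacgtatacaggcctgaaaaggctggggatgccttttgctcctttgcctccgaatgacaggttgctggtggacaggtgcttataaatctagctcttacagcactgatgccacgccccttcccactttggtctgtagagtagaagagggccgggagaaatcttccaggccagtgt
*2900026A02Rik*, both lists, chr5:113546936-113547235, plus strand: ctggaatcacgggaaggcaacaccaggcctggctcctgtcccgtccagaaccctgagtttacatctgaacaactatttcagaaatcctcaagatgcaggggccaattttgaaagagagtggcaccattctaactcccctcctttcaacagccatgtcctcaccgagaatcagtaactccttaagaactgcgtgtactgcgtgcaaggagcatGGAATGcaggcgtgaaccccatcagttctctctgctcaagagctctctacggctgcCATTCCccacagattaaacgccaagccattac

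The window in *Jph2* held 1 GATA match and the window downstream of *Sipa1l2* held 1 TBX5 match. The window in *2900026A02Rik* held 2 TEAD matches. The other 2 windows held none of the 6 motifs. Over all members, a GATA match lay in the middle 300 bp of 16.3% (14.1% to 18.8%), against 20.9% of all distal regions of at least 300 bp and 19.6% of all merged regions of that size. TEAD matches were in 18.1% of members, against 18.2% of distal regions and 17.6% of all merged regions. TBX5 matches were in 15.1%, against 14.9% and 15.1%, and NKX2-5 matches in 16.1%, against 17.9% and 17.2%. MEF2 matches were in 4.05%, against 5.60% and 5.23%, and CArG matches in 1.71%, against 1.68% and 1.62%. The interval for GATA lay below both shares set beside it, and each of the other 5 intervals held at least 1 of them. The lists give no summit, so the middle of a wide region need not be where the mark was strongest. In the middle 300 bp of members with decreased H3K4me1 the TBX5 share was 21.6% (14.3% to 31.3%), an interval that held the 15.1% of all merged regions. A match is a run of letters, not evidence of binding.

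Members were found in the decreased lists more often than merged regions in general. Decreased H3K4me1 was called for 88 members, or 9.38% (7.68% to 11.4%), against 0.761% of all merged regions. Decreased H3K4me2 was called for 65 members, or 6.93% (5.47% to 8.74%), against 1.87% of all merged regions. The lists shared 4 members, 0.426%, against 0.0479% of all merged regions. Of members with decreased H3K4me1, 4.55% (1.78% to 11.1%) were also in the H3K4me2 list, beside 6.93% of all members. That interval holds the share of all members, so no excess of joint calls was seen among members. Thus 84 members were in the H3K4me1 list only, 61 in the H3K4me2 list only and 789 (84.1%) in neither. Among distal regions below 8000 bp the share in each decreased list was higher in each wider class. Among members these shares did not rise at every step. Width was the basis on which members were chosen. A wide region can gather more reads, which helps a call to be made, and absence from a list does not show that a mark was kept.

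**Figure D1:**
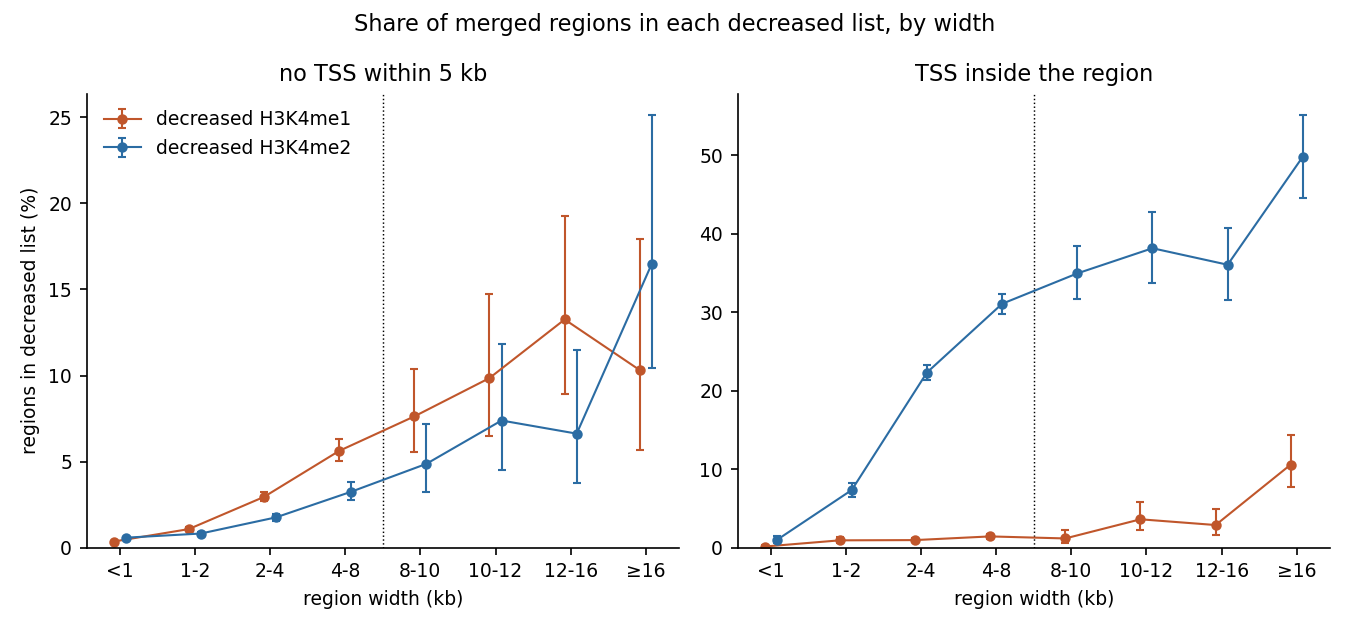
Percentage of merged regions in the decreased H3K4me1 (orange) and H3K4me2 (blue) lists, on the y axis, by region width in kb, for regions with no TSS within 5 kb (left) and regions holding a TSS (right, on a larger y scale). Bars are 95% Wilson intervals and the dotted line marks 8 kb; without a TSS the H3K4me1 share was highest at 12000 to under 16000 bp (13.3%) and the H3K4me2 share at 16000 bp or more (16.5%), whereas with a TSS the H3K4me2 share reached 49.9% and the H3K4me1 share 10.6%.

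Without a TSS nearby, the share with decreased H3K4me1 was 0.365% below 1000 bp, 2.95% at 2000 to under 4000 bp, 5.62% at 4000 to under 8000 bp and 7.63% at 8000 to under 10000 bp. It was 13.3% (8.92% to 19.3%) at 12000 to under 16000 bp and 10.3% (5.70% to 17.9%) in the 97 members of 16000 bp or more. For decreased H3K4me2 the corresponding shares were 0.588%, 1.77%, 3.26% and 4.87%, and then 6.63% (3.74% to 11.5%) and 16.5% (10.4% to 25.1%). Below 16000 bp the H3K4me1 share was the higher in each width class from 1000 bp up, and in the widest class the order turned, with intervals that overlapped. For each mark the intervals of the classes on either side of 8000 bp overlapped.

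The position of a broad region relative to a TSS went with the mark that was called. Broad regions holding a TSS were in the H3K4me2 list in 38.5% of cases (36.4% to 40.7%) and in the H3K4me1 list in 3.76% (3.00% to 4.70%). Members had a lower H3K4me2 share and a higher H3K4me1 share than these, and neither pair of intervals overlapped. The H3K4me1 difference was absent at 16000 bp or more. There the share was 10.3% (5.70% to 17.9%) for members and 10.6% (7.77% to 14.4%) with a TSS inside. Broad regions with a TSS within 5 kb but none inside gave an H3K4me1 share of 9.20% (5.66% to 14.6%) and an H3K4me2 share of 6.75% (3.81% to 11.7%), intervals that hold the shares of the members. Among members the H3K4me1 share was 10.2% (6.67% to 15.2%) at 5 to 10 kb from the nearest TSS and 6.28% (3.63% to 10.7%) beyond 50 kb. The H3K4me2 share was 8.12% (5.06% to 12.8%) and 5.24% (2.87% to 9.37%) at the same distances. All these intervals overlapped, so no trend with distance could be read from them.

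Members were a small part of each decreased list by number. Their larger part by length follows from their choice by width. They covered 10.7 Mb of the 190.7 Mb in all 283083 regions with no TSS within 5 kb. Among the 2730 regions of the H3K4me1 list they were 3.22%, with 13.7% of its base pairs. Of the 2028 regions with decreased H3K4me1 and no TSS within 5 kb they were 4.34%, and 22.5% of the length. Among the 6699 of the H3K4me2 list they were 0.970%, with 3.13% of its base pairs. Of the 2124 such regions with no TSS within 5 kb they were 3.06%, and 27.9% of the length.

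The width of the members ran from 8000 to 47680 bp, with a median of 9960 bp (quartiles 8860 and 12355 bp). The median distance to the nearest TSS was 21.4 kb. At the threshold, 6 distal regions measured exactly 8000 bp and 10 measured 7980 bp, the next width on the 20 bp grid of the files. The members just inside included regions assigned to *4933407C03Rik* and *Gm1968*, and those just outside included regions in *Tns1* and *Plekha6*, each in neither list. Of the 10 widest members, 2 were in the H3K4me1 list, 2 in the H3K4me2 list and 6 in neither. Of the 100 widest, 11 were in the H3K4me1 list and 16 in the H3K4me2 list, 2 of them in both.

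**Figure D2:**
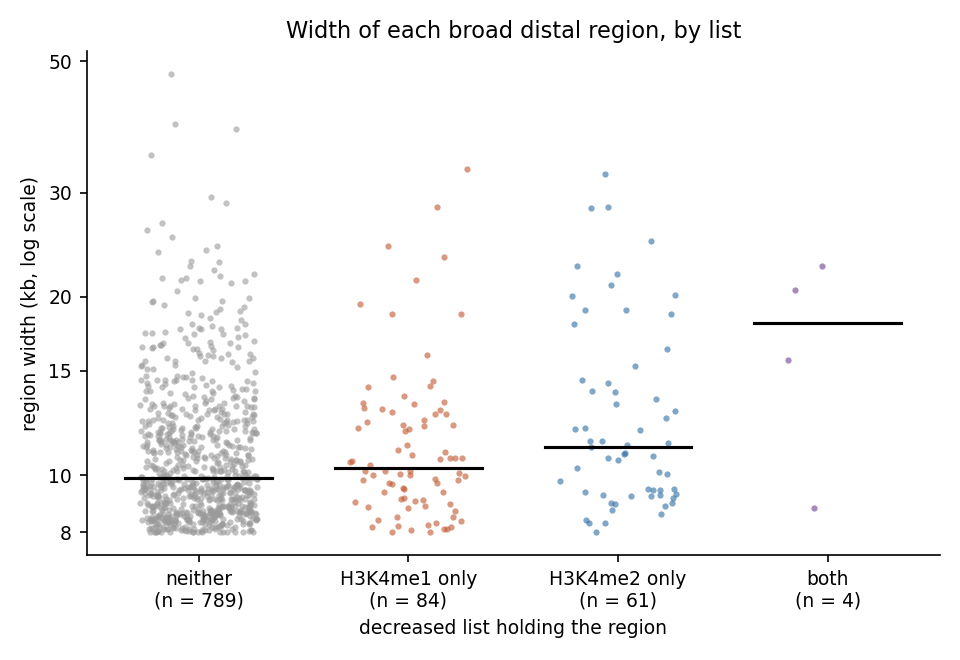
Width of each of the 938 members in kb (y axis, log scale), by the decreased list that holds it (x axis); each point is a region and each black line a median. The groups overlapped over most of their range, with medians of 9.88 kb (neither), 10.3 kb (H3K4me1 only), 11.1 kb (H3K4me2 only) and 18.1 kb (both, 4 regions), and the widest region, 47.7 kb, was in neither list.

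The widest member of all lay in *Smad6*, an inhibitory SMAD of BMP signalling. It ran from chr9:63794746-63842425, spanned 47680 bp with exon sequence inside, and was in neither list. The next 3 were also in neither list: *Tspan18*, a tetraspanin gene (39200 bp), *Col4a1*, a type IV collagen of basement membranes (38420 bp), and *Loxl2*, a lysyl oxidase that cross-links collagen (34700 bp). The fifth widest in neither list lay in *Rbpms*, an RNA-binding protein gene (29480 bp). The 5 widest uncalled members thus all overlapped a host gene and all held exon sequence.

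Of the members with decreased H3K4me1, the widest lay in no gene, at chr8:128026806-128059725 (32920 bp), 10.2 kb upstream of the nearest coding TSS, that of *Sipa1l2*. The second lay in an intron of *Tns1* (28380 bp), which encodes tensin, a link between integrin adhesions and actin. The third was in the first intron of *Pmepa1* (24340 bp), a negative regulator of TGF-beta signalling. They were followed by regions in *Zfand3* (23400 bp) and *Ell2*, an RNA polymerase II elongation factor gene (21360 bp). A second region upstream of *Sipa1l2* measured 19440 bp. Regions in *Fbxo32*, a muscle ubiquitin ligase gene (18740 bp), and *Lrrfip1* (18700 bp) completed the 10 widest together with 2 that were in both lists. Apart from the regions around *Sipa1l2*, these overlapped protein-coding genes.

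Of the members with decreased H3K4me2, the widest lay in the first intron of *Abtb2*, at chr2:103414226-103446445 (32220 bp). A region of 28320 bp lay in *Zfp608*, a zinc-finger gene, with exon sequence. An intergenic region of 24840 bp had its nearest coding TSS in *Pim1*, a serine/threonine kinase gene, 38.3 kb away. A region of 22600 bp lay in an intron of *Foxp1*, a forkhead transcription factor gene. Regions of 21860 bp in *Frs2*, an adaptor of FGF receptors, 20940 bp in the gene model *Gm20388* and 20120 bp in *Add3*, a membrane-skeleton adducin gene, were also among the 10 widest, as were 2 in both lists. *Gm20388* is a predicted model of 4435 kb that spans many other genes, and the nearest coding TSS to that region, 104.5 kb away, was that of *Gse1*.

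The 4 members in both lists differed in width and setting. The widest, at chr8:127860126-127882725 (22600 bp), was intergenic and lay 133.9 kb from the nearest coding TSS, again that of *Sipa1l2*, on its downstream side. The second, at chr2:163172206-163192765 (20560 bp), lay within an intron of *Jph2*, which encodes junctophilin, the protein that holds the T-tubule membrane to the calcium store of heart muscle. The third, at chr5:113539266-113554905 (15640 bp), lay in the first intron of *2900026A02Rik*. The fourth, at chr13:47338866-47347665 (8800 bp), held exon sequence of *Rnf144b*, a ubiquitin ligase gene.

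Most members lay in genes, and the share differed by the mark called. A protein-coding gene was overlapped by 707 of 938 members (75.4%, 72.5% to 78.0%), against 64.4% (63.0% to 65.7%) of distal regions of 4000 to under 8000 bp. The share was 85.2% (76.3% to 91.2%) for members with decreased H3K4me1 and 50.8% (38.9% to 62.5%) for members with decreased H3K4me2, while for members in neither list it was 76.3% (73.2% to 79.1%). The same order was seen in the distal regions of 4000 to under 8000 bp, at 74.0% (68.5% to 78.8%) for decreased H3K4me1 and 39.2% (32.0% to 47.0%) for decreased H3K4me2. The H3K4me2-called regions were thus the ones found most often between genes, in both width classes.

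Within genes, 510 members lay wholly inside 1 intron of the host's longest transcript. It was the first intron for 246 of these (48.2%, 43.9% to 52.6%), against 39.9% (37.9% to 41.9%) of the distal regions of 4000 to under 8000 bp inside 1 intron. Over all distal regions inside 1 intron the share was 26.7%. An intron must be longer than the region it holds, so the width rule itself limits which introns are counted. Exon sequence of any gene type was held by 21.3% of members, by 22 of the 88 with decreased H3K4me1 and by 12.3% of those with decreased H3K4me2. Intergenic members lay on the upstream side of the nearest coding TSS in 11 of 13 cases in the H3K4me1 list, 19 of 32 in the H3K4me2 list and 117 of 187 in neither list.

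CpG-rich sequence also differed between the lists. A window of 500 bp with at least 55% GC and a CpG ratio of at least 0.65 (observed over that given by the C and G content), a common definition of a CpG island, was held by 17 of 65 members with decreased H3K4me2 (26.2%, 17.0% to 37.95%). It was held by 3 of 88 with decreased H3K4me1 (3.41%, 1.17% to 9.55%) and by 31 of 789 in neither list (3.93%, 2.78% to 5.52%). Among broad regions holding a TSS, 77.4% had one. In distal regions of 4000 to under 8000 bp the shares were 23.4% (17.5% to 30.6%) for decreased H3K4me2, 0.733% for decreased H3K4me1 and 2.71% for neither. This measure was chosen after the data were seen. It also depended on the definition, since with a looser one (200 bp, 50% GC and a ratio of 0.6) the shares became 70.8%, 67.0% and 53.1% and no longer set the H3K4me2 members apart from the H3K4me1 members.

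**Figure D3:**
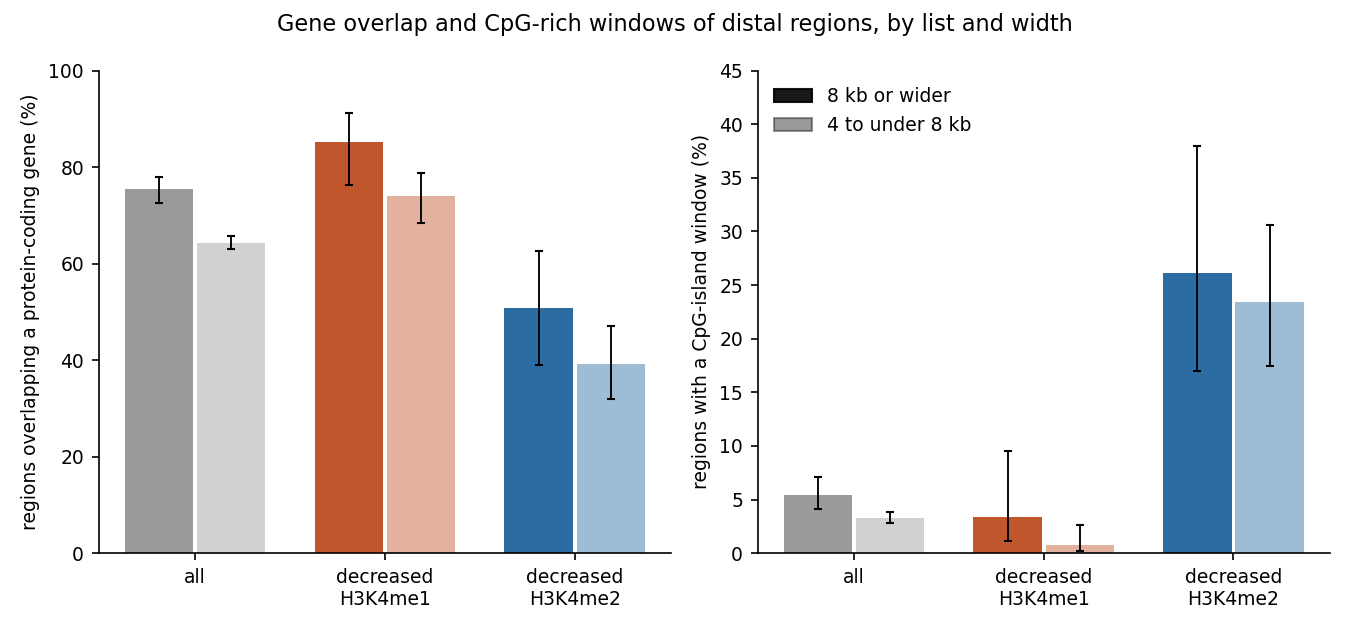
Percentage of distal regions that overlapped a protein-coding gene (left) and that held a CpG-island window (right), for all regions and those in each decreased list; solid bars are members of 8 kb or wider, pale bars distal regions of 4 to under 8 kb, and error bars 95% Wilson intervals. Regions with decreased H3K4me2 were the lowest for gene overlap (50.8% and 39.2%) and the highest for CpG-island windows (26.2% and 23.4%) in both width classes.

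Of the 17 members with decreased H3K4me2 and a CpG-island window, 14 were intergenic, out of 32 intergenic members in that list, and none of these 14 held an exon of any annotated gene type. The choice of members had already removed annotated TSS, so this does not show that the 14 are not promoters. Whether any was an unannotated promoter was not tested. The 17 lay between 5.42 and 55.02 kb from the nearest annotated TSS. The most CpG-dense 300 bp of the 2 widest intergenic ones are shown because they carry this pattern, with each CpG in capitals, again on the plus strand of NCBIM37.
Nearest to *Bcor*, decreased H3K4me2, chrX:11584226-11584525, plus strand: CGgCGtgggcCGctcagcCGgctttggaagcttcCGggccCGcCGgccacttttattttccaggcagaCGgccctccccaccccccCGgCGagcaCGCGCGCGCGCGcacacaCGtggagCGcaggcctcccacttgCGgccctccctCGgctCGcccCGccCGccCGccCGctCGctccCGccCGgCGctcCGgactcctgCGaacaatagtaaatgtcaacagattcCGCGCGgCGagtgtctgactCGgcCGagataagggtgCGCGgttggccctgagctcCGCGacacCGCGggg
Nearest to *Tbx5*, decreased H3K4me2, chr5:120253886-120254185, plus strand: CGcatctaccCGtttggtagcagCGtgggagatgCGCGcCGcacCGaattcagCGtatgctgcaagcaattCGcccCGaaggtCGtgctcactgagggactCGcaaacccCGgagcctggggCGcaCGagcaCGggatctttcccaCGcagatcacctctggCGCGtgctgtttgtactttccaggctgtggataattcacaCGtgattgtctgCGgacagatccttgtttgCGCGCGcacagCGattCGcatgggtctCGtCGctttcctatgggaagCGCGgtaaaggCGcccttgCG

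The window nearest to *Bcor*, a transcriptional corepressor gene, held 43 CpG dinucleotides at 72.3% GC. The window nearest to *Tbx5*, a T-box factor of heart development, held 32 at 60% GC. For comparison, the 5 middle windows printed above held between 3 and 8 CpG dinucleotides. The middle windows and these CpG-rich ones were chosen by different rules, so the contrast shows only that CpG-dense stretches occur inside these 2 members. Over their whole length, members with decreased H3K4me1 had a median GC content of 49.9%, against 46.1% for decreased H3K4me2 and 46.5% for neither. The median CpG ratio of the same groups was 0.220, 0.236 and 0.216.

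Other decreased regions of the same mark often lay near the called members. Another region with decreased H3K4me1, of any width, lay within 20 kb of 44 of 88 members with decreased H3K4me1 (interval 39.8% to 60.2%), of 13 of 65 members with decreased H3K4me2 and of 16.2% (13.8% to 19.0%) of members in neither list. Another region with decreased H3K4me2 lay within 20 kb of 26 of 65 members with decreased H3K4me2 (interval 29.0% to 52.1%), of 22.7% of members with decreased H3K4me1 and of 22.6% (19.8% to 25.6%) of members in neither list. In each case the share was highest for members called in that mark. Distal regions of 4000 to under 8000 bp showed the same order, so it was not particular to members. There the H3K4me1 shares were 35.2% (29.7% to 41.0%) for regions with decreased H3K4me1 and 12.8% for regions in neither list. The H3K4me2 shares were 33.5% (26.7% to 41.2%) for regions with decreased H3K4me2 and 17.6% for regions in neither list. At the promoters of the assigned genes, a TSS of the host or nearest gene lay inside a region with decreased H3K4me1 for 20.5% (13.3% to 30.0%) of members with decreased H3K4me1, 9.23% (4.30% to 18.7%) of those with decreased H3K4me2 and 2.79% of those in neither list. For a TSS inside a region with decreased H3K4me2 the shares were 50.8% (38.9% to 62.5%) of members with decreased H3K4me2, 34.1% of those with decreased H3K4me1 and 39.7% of those in neither list, and the interval of the first holds the last. Over all merged regions the promoter shares were 1.53% for decreased H3K4me1 and 27.8% for decreased H3K4me2.

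Some members had another member nearby, a measure taken for no other class of regions. Within 50 kb of another member lay 369 of 938 (39.3%), and 85 were joined by gaps of at most 2 kb into 41 chains. The longest chain held 3 members across chr8:128026806-128089045, upstream of *Sipa1l2*. Its members measured 32920, 8120 and 19440 bp, covered 60480 of its 62240 bp, and were all in the H3K4me1 list. In *Zeb2*, a zinc-finger repressor gene of the epithelial-mesenchymal transition, 2 members of 14480 and 13160 bp formed a chain and were both in the H3K4me2 list. In *Ccdc85c*, 2 members of 9700 and 14400 bp formed a chain with both in the H3K4me1 list. Every other chain held at least 1 uncalled member, and most held no called one. Among the 229 neighbouring pairs within 50 kb, 6 joined 2 members in the H3K4me1 list only, 1 joined 2 in the H3K4me2 list only, 2 joined 1 member of each kind, and 163 joined 2 uncalled members. The other pairs joined an uncalled member to a member in the H3K4me1 list only (33 pairs) or in the H3K4me2 list only (24 pairs). Of all members 84.1% were in neither list, which by itself makes pairs of 2 uncalled members common. Whether neighbours shared a call more often than this gives was not tested. Neighbouring regions of the merged list were never closer than 620 bp.

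The members were assigned to 655 genes, and 124 host genes held more than 1. *Msi2*, an RNA-binding protein gene, held the most, with 13 members covering 186040 bp of a gene of 427 kb. Of these, 2 were in the H3K4me1 list and 11 in neither. *Gm20388* held 12, of which 3 were in a decreased list, *Magi1*, a scaffold of cell junctions, held 8, and *Prkce*, which encodes protein kinase C epsilon, held 6. All 8 members in *Magi1* were in neither list, and *Prkce* had 1 in the H3K4me2 list. Of all members 84.1% were in neither list, and these counts are too small to set a gene apart from that share.

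Few genes had several called members: 127 genes had at least 1 and 17 had at least 2. *Cacna1c*, the pore-forming subunit of the L-type calcium channel, had 5 intronic members of 8320 to 11980 bp, and 3 of them were in the H3K4me1 list. *Foxp1* had 2 intronic members, of 22600 and 18000 bp, both in the H3K4me2 list. *Dkk3*, a member of the Dickkopf family, had 2 of 13000 and 10960 bp, both in the H3K4me1 list. *Casz1*, a zinc-finger gene, and *Tspan9* had 2 each, all in the H3K4me1 list.

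**Figure D4:**
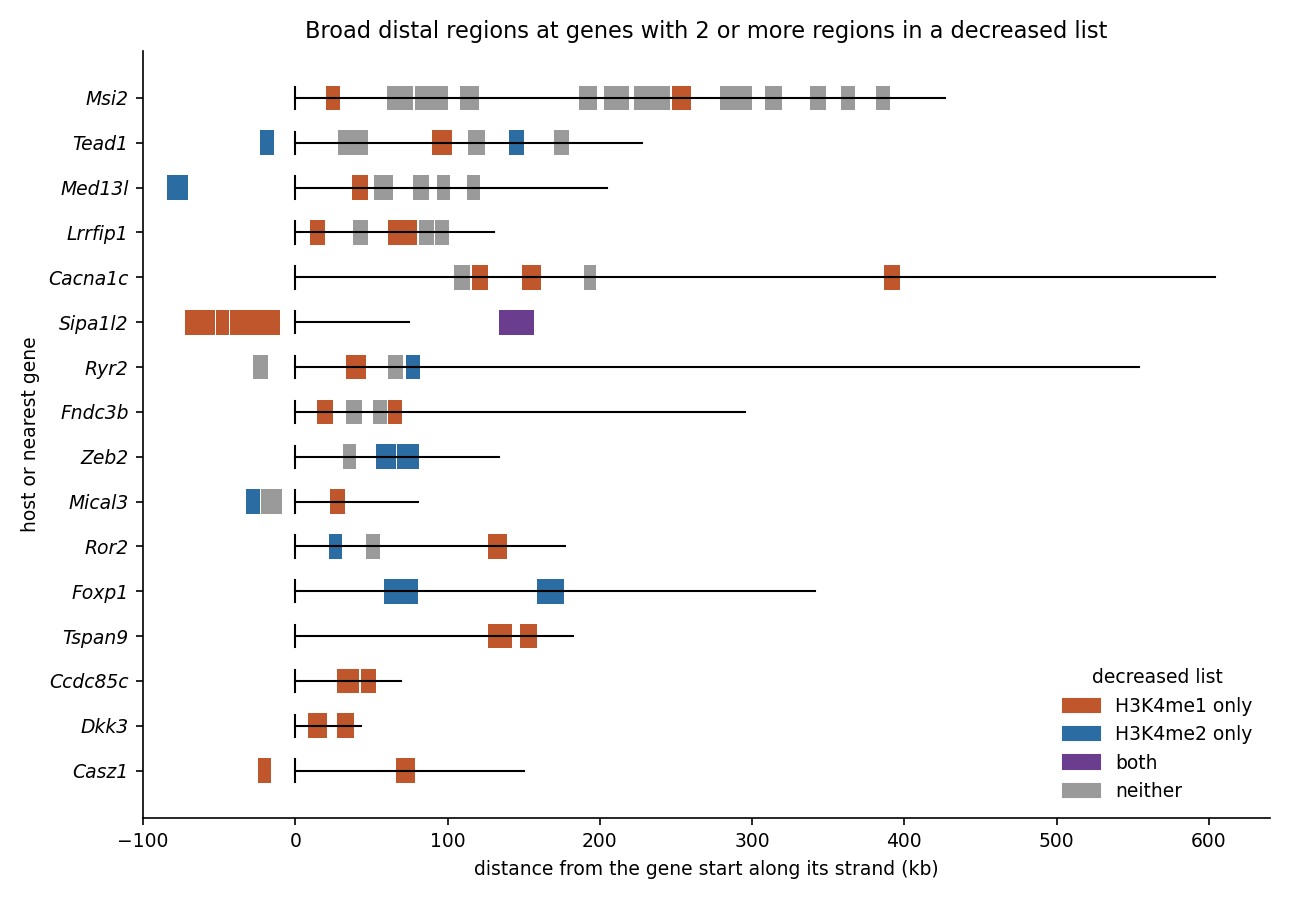
Members at the 16 genes with at least 2 called members (*Gm20388* left out for its length), by distance from the gene start along its strand in kb; lines are gene bodies, ticks gene starts and boxes members, coloured by list. Most genes mix called and uncalled members, the boxes upstream of *Sipa1l2* are all orange, and *Tead1*, *Med13l*, *Ryr2*, *Mical3* and *Ror2* hold both orange and blue boxes.

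At some genes the marks were called in different members. *Tead1*, a Hippo-pathway transcription factor gene, had 6 members. The one in the H3K4me1 list (13160 bp) lay 90.1 to 103.2 kb into the gene, and those in the H3K4me2 list lay upstream of it (9280 bp) and 140.3 kb into it (9760 bp). *Ryr2*, the calcium-release channel of the sarcoplasmic reticulum, had a member of 13240 bp with decreased H3K4me1 and one of 9440 bp with decreased H3K4me2, separated by an uncalled member of 10020 bp. *Ror2*, a Wnt receptor tyrosine kinase gene, had 1 of each, of 12300 and 8400 bp. In all, 10 genes had a member in each list, and at 6 of them the calls fell on separate members with none in both.

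Genes of the heart, of other tissues and of general processes were examined through 14 lists, of 400 genes in all. The lists were chosen with earlier results of these data known. Of the 938 members, 135 were assigned to a listed gene, 17 of these (12.6%) with decreased H3K4me1 and 14 (10.4%) with decreased H3K4me2, beside 9.38% and 6.93% of all members. Core cardiac transcription factors had 20 members at 10 of 36 genes. The H3K4me2 list held 6 of them, among them members at *Foxp1* (2 members), *Tbx5* (15260 bp, chr5:120243346-120258605), *Meis2* (12500 bp) and *Gata6* (9460 bp). The H3K4me1 list held 1, in *Prdm16* (8480 bp), and 13 were in neither, including those assigned to *Meis1*, *Mef2c*, *Irx3* and *Hey1*. The *Tbx5* region lay 26.1 kb upstream of the gene. The called region assigned to *Gata6*, an endoderm and heart factor, lay 313.6 kb from its TSS, so its assignment rests on proximity alone. Another member assigned to *Gata6* (13860 bp) lay nearer, at 178.3 kb, and was in neither list.

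Ion transport and calcium handling had 19 members at 10 of 42 genes. The H3K4me1 list held 7: 3 in *Cacna1c*, 1 in *Ryr2*, the *Jph2* member that was in both lists, 1 of 10020 bp that lay 12.03 kb from the TSS of *Hcn4*, the pacemaker channel gene, and 1 of 8400 bp nearest to *Atp2a2*, the calcium pump of the sarcoplasmic reticulum. The H3K4me2 list held 3: the *Jph2* member, 1 in *Ryr2* and 1 of 20100 bp that lay 73.7 kb upstream of *Slc8a1*, the sodium-calcium exchanger gene. The 10 members in neither list were 8060 to 17420 bp wide and included regions in *Kcnq1* and *Camk2d*. Others of these lay at genes that also had a called member: *Cacna1c*, *Ryr2* and *Slc8a1*. The uncalled region at *Slc8a1* (8160 bp) lay 16.2 kb from the nearest coding TSS, nearer than the called one. Among the sarcomere and Z-disc genes 3 of 40 had members, 6 in number. The H3K4me1 list held 1 at *Actn2*, the alpha-actinin of the Z-disc (10400 bp), and 1 at *Fhod3*, a formin of heart muscle (8940 bp), and the H3K4me2 list held none.

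Of the signalling lists, Wnt had 19 members, with 3 in the H3K4me1 list (2 at *Dkk3*, 1 at *Ror2*) and 2 in the H3K4me2 list (*Ror2* and *Tcf7l2*, a nuclear effector of Wnt, 9200 bp). Notch, Hippo and neuregulin signalling had 16, with 1 in the H3K4me1 list (*Tead1*) and 3 in the H3K4me2 list (2 at *Tead1* and 1 of 8960 bp at *Maml3*, a Notch coactivator gene). TGF-beta and BMP signalling had 11, of which the region in *Bmp7*, a BMP ligand gene (12800 bp), was in the H3K4me1 list. The 4 members at *Smad6* were all in neither list.

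Members at genes of other cell types and of structure were few in each gene list, and of all members 84.1% were in neither decreased list. Endothelial and endocardial genes had 14 members of 8020 to 39200 bp, at *Tspan18*, *Cgnl1*, *Ets1*, *Fli1*, *Elk3*, *Nfatc1* and *Pecam1*, and none was in either list. Intercalated disc and adhesion genes had 10 members of 8760 to 16480 bp, at *Cdh2*, *Lpp*, *Itga6*, *Itga9* and *Tln2*, and none was in either list. Extracellular matrix and cushion genes had 13, of which a region of 8180 bp nearest to *Col18a1*, a basement-membrane collagen gene, was in the H3K4me1 list. Axon guidance genes had 6, of which a region of 10000 bp in *Plxna4*, a semaphorin receptor gene, was in the H3K4me1 list. Blood and erythroid genes had 1, of 14320 bp near *Hbb-y*, in neither list. The epicardial list, the list of neural and other tissue transcription factors and the list of H3K4 methyltransferases and KMT2D partners had none. With between 1 and 20 members in a list, no list could be set apart from the others.

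**Figure D5:**
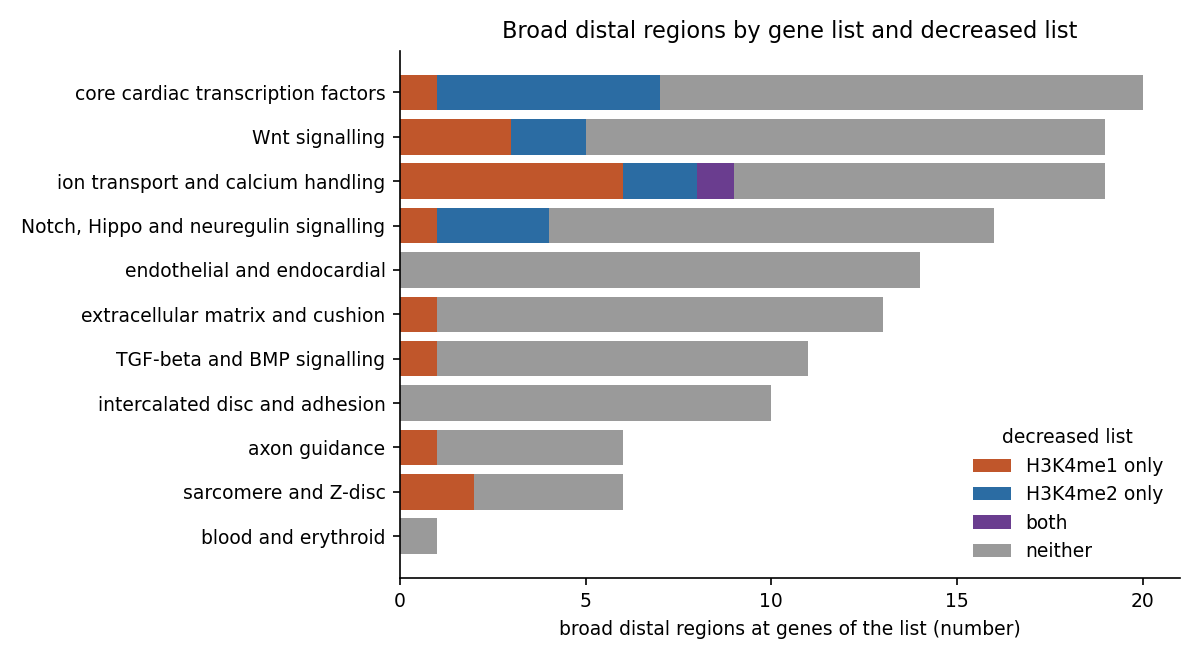
Number of members assigned to genes of each list (x axis), for the 11 lists with any member, coloured by the decreased list that holds them. Core cardiac transcription factors (20 members) show mainly blue calls and ion transport and calcium handling (19 members) mainly orange ones, while the 14 endothelial and the 10 adhesion members are all grey. Of all members 84.1% were in neither list, and the counts are too small to set a list apart.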

How the data were processed

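Histone H3K4me1, H3K4me2 and H3K4me3 ChIP-Seq of control and *Tnnt2::Cre;Kmt2d fl/fl* mouse hearts was used as 3 region lists deposited by the authors. Each holds a chromosome, start and end, and no other column. The authors merged regions over replicates and marks, then listed those with lower H3K4me1 or H3K4me2 in mutants, using a false discovery rate threshold. The deposited H3K4me2 list differs in length from the number in the study's text, and was used as deposited. The submitters' processing notes name Bowtie, Bowtie2, SAMtools, FastQC, CASAVA 1.8.2 and build mm9. The peak caller and test are not given in the sources used here.

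The 0-based starts of the lists were converted to 1-based coordinates, and regions were matched exactly. Each decreased region had an identical merged region, 9257 distinct ones in all. TSS (86879 positions), genes and exons came from GENCODE vM1, and sequence from NCBIM37. The RefSeq tables are of another assembly and were not used. The host was the protein-coding gene whose body held most of a region, ties going to the nearest TSS. Otherwise the gene of the nearest protein-coding TSS was used. Shares carry 95% Wilson intervals (Python 3.11.15, pandas 2.3.3, SciPy 1.17.1, pyfaidx 0.9.0.4, samtools 1.23.1). No test was made, since the lists hold no value per pool. Interval, motif and host functions were checked on planted data.

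Named regions were those in both lists, the 10 widest of each list, the 5 widest in neither, 2 on each side of the width threshold, the 5 genes with most members as host, and called members at listed genes. The *Bcor* region, the CpG-island windows, the chains, the nearby decreased regions and the genes with several called members were chosen after their values were seen. The members and gene lists were chosen with earlier results of these data known. Read depth is unknown, so a region outside a list cannot be called unchanged. Some genes that the naming rule selects are not reported here.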

Additional observations from a re-analysis of the deposited data

How the results depend on the processing

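The number of members followed the width threshold, at 2153 regions for 6000 bp and 466 for 10000 bp. The share with decreased H3K4me1 stayed within its interval under each alternative, from 7.99% to 11.2%. For decreased H3K4me2 a width of 6000 bp gave 4.64% and one of 10000 bp gave 9.01%. The share overlapping a protein-coding gene was 72.2% and 78.3% at the same widths. It was 72.3% when the whole region had to lie inside the gene body, a setting chosen after seeing the data. The share within 50 kb of another member was 28.04% with a gap of at most 20 kb and 9.06% with one of at most 2 kb, the latter added after seeing the data. A smaller gap can only lower that share. The cause of the other shifts was not tested. TSS distances of 2 and 10 kb and TSS of protein-coding genes only left the shares in either decreased list within their intervals. Weighting by base pairs did so too. Overlap of at least 1 bp in place of an exact match had to return the same members, so it was no check. Both lists only repeat entries of the merged list, and gaps of 620 bp or more separate those entries. Among members called in each mark, minimum widths of 6000 and 10000 bp, also tried after seeing the data, gave gene overlaps of 83.1% and 88.5% (H3K4me1) and of 46.0% and 54.8% (H3K4me2). With the middle 1000 bp searched in place of 300 bp, the share of members with a match was higher for all 6 motifs, from 5.97% (CArG) to 49.0% (GATA). The longer window contains the shorter one, so it cannot lower a share. No paired analysis was possible because the lists hold no value per replicate, and for the same reason no replicate could be left out. Depth limits every absence of a call.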
